A study of Rattus norvegicus with 6 samples.

Results

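The mRNAs described here encode the enzymes that make ubiquinone (coenzyme Q) and 2 enzymes that reduce it, in rat donor hearts after transplantation. The 10 genes were taken by symbol from the deposited table of 22250 rat genes. They are Pdss1, Pdss2, Coq2, Coq3, Coq5, Coq6, Coq7, Coq9, Dhodh and Aifm2, and all 10 passed the filter on low counts that left 13784 genes for testing. RNA-Seq was performed on left ventricular myocardium from 3 young donor hearts (numbers 3, 13 and 15, donors aged 10 weeks) and 3 aged donor hearts (numbers 3, 4 and 7, donors aged 1 year). All 6 donors were WT Sprague-Dawley rats, and every heart underwent heterotopic transplantation and was taken on postoperative day 1. The donor hearts were kept in cold University of Wisconsin solution before transplantation into young rats, so a heart can also hold blood cells of its recipient, and no heart without transplantation was analysed here. The numbers count animals within a group, so young heart 3 and aged heart 3 are different hearts.

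Ubiquinone is a ring with a long isoprenoid tail that carries electrons in the inner mitochondrial membrane from complexes I and II, and from other dehydrogenases, to complex III. Its tail comes from the mevalonate pathway, and its ring is built on 4-hydroxybenzoate and then hydroxylated and methylated by a complex of COQ proteins. The reduced form, ubiquinol, also traps lipid radicals and so protects membranes against ferroptosis, an iron-dependent cell death driven by lipid peroxidation. DHODH, which oxidises dihydroorotate in pyrimidine synthesis, passes electrons to ubiquinone inside mitochondria, and AIFM2 (also called FSP1) reduces ubiquinone outside them. The heart, with its dense mitochondria, is rich in ubiquinone. The study compared the protection that cold storage gives to aged and young donor hearts and took up DHODH as a defence against ferroptosis, and the values here give the mRNA of the genes around it.

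Promoters are shown for 2 pairs of partner genes on which the results turn. COQ9 is the lipid-binding partner of the hydroxylase COQ7, and Coq9 and Coq7 were both lower in aged donor hearts. PDSS1 and PDSS2 are the subunits of 1 enzyme, and Pdss2 was lower while Pdss1 was not past the limits. The sequences are the 250 bases before the gene start from RefSeq (build GRCr8, gene strand, 5′ to 3′), at chr19:10185937-10186186 on the minus strand for Coq9, chr1:182285370-182285619 on the minus strand for Coq7, chr20:48291613-48291862 on the plus strand for Pdss2 and chr17:89968244-89968493 on the plus strand for Pdss1. Capitals mark the GC box (GGGCGG), the CCAAT box (CCAAT) and the core of the antioxidant response element (TGACNNNGC), on either strand.
Coq9: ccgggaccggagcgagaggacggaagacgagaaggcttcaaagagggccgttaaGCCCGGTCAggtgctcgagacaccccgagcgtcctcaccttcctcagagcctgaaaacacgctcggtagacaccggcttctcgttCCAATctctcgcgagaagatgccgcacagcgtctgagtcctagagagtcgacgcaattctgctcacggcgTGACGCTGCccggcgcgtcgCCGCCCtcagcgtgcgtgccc
Coq7: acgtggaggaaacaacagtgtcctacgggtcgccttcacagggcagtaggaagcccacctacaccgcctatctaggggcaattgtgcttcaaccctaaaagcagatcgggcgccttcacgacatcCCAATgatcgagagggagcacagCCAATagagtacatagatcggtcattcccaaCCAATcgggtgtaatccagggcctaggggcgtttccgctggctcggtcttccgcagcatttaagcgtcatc
Pdss2: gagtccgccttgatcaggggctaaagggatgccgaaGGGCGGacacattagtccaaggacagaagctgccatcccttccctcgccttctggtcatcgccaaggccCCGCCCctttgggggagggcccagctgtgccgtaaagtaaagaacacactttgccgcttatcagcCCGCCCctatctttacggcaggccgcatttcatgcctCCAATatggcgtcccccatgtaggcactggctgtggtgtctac
Pdss1: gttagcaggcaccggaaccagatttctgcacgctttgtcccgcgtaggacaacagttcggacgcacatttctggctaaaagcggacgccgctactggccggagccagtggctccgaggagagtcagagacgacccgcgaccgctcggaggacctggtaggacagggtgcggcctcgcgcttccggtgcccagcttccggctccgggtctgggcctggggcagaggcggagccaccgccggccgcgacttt

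The table of promoters held 8 of the 10 genes, without Coq2 and Dhodh. The CCAAT box was found in 4 of the 8 (Coq6, Coq7, Coq9 and Pdss2), against 34.0% of all 33469 promoters of this length, and Coq6 and Coq7 held 3 copies each. The GC box was found in 3 of the 8 (Coq5, Coq9 and Pdss2), against 30.5% of all promoters, and Pdss2 held 3 copies. The antioxidant response core was found only in Coq9 among the 8, in 2 copies, against 10.1% of all promoters. None of these 3 motifs was found in Coq3, Pdss1 or Aifm2. The half-site of the oestrogen-related receptors (AAGGTCA, 4.0% of all promoters), the E-box (CACGTG, 5.6%), the core of the nuclear respiratory factor 1 site (GCGCATGC, 2.2%) and the TATA box (TATAAA, 12.9%) matched in 0 of the 8. Both strands were searched, and matches of different motifs may share bases. The GC content of the 8 promoters ran from 34.8% in Coq3 to 66.8% in Pdss1, with a median of 51.2% over all promoters. These matches describe letters in this window alone.

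The 6 libraries held 21457509 to 24560869 counted reads, and young hearts 3 and 13 stood apart from the other 4. Genes of the mitochondrial genome took 21.7% of the counts in each of these hearts, 11.9% in young heart 15 and 6.56% to 10.3% in the aged donor hearts. Of 10 cardiomyocyte markers tested, 8 were lower in every aged donor heart than in every young one, against 20.6% of all genes tested. The summed level of the 10 was 75288 CPM in young heart 3, 84173 in young heart 13 and 12824 in young heart 15, but 143 in aged heart 3, 7129 in aged heart 4 and 5039 in aged heart 7. No cardiomyocyte marker was at 0 reads in any heart. The 8 neutrophil markers tested summed to 5.32 to 134.6 CPM in young and 314.2 to 1326 CPM in aged donor hearts, and the 9 macrophage markers to 363.2 to 2275 and 3598 to 6930 CPM. CPM here are read counts divided by library sizes that edgeR's TMM method had scaled, in units of 1e6 reads. In bulk tissue, fewer cells of a type and less RNA per cell cannot be told apart, and the part of cell composition in the results that follow was not tested.

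Of the 8 synthesis genes, all but Pdss1 were lower past the limits of the test in aged donor hearts. Pdss1, Dhodh and Aifm2 were not past them. By edgeR's quasi-likelihood test, 7 of the 10 genes were lower past the limits used in the study (a fold change under 0.67 or over 1.5 with an unadjusted p under 0.05), 0 were higher and 3 were not past them. Over all 13784 genes tested, 2621 (19.0%) were lower and 1815 (13.2%) higher by the same limits. The log2 fold changes of the 10 genes ran from -2.92 to 0.31 with a median of -1.38, against a median of 0.02 over all genes tested. In 5 of the 10, every aged donor heart lay below every young donor heart, which 20.6% of all genes tested did, and in 0 of the 10 did every aged heart lie above, against 21.0% of all genes. After Benjamini-Hochberg adjustment in edgeR, 0 genes (0% of those tested) had an adjusted p under 0.05, against 4731 genes with an unadjusted p under 0.05, and the adjusted p of the 10 genes ran from 0.0916 to 0.367. By DESeq2, 6 of the 10 and 3592 of all genes passed that adjusted limit. By limma-voom with sample quality weights, which let hearts count unequally, 8 of the 10 and 8416 of all genes did. The direction rests on scaling over all genes. With cardiomyocyte markers as the scale, all 10 log2 fold changes were positive (median 4.59), while over all genes tested the median became 5.99, and with 11 mitochondrial reference genes as the scale, 3 of the 10 were lower and 1, Dhodh, was higher past the limits. A change of scale shifts every gene by nearly the same amount, so distances from the median over all genes are largely fixed by construction. Counted in this way, the 10 had a median of -1.40 under TMM and under cardiomyocyte scaling, and -1.27 under mitochondrial scaling.

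**Figure D1:**
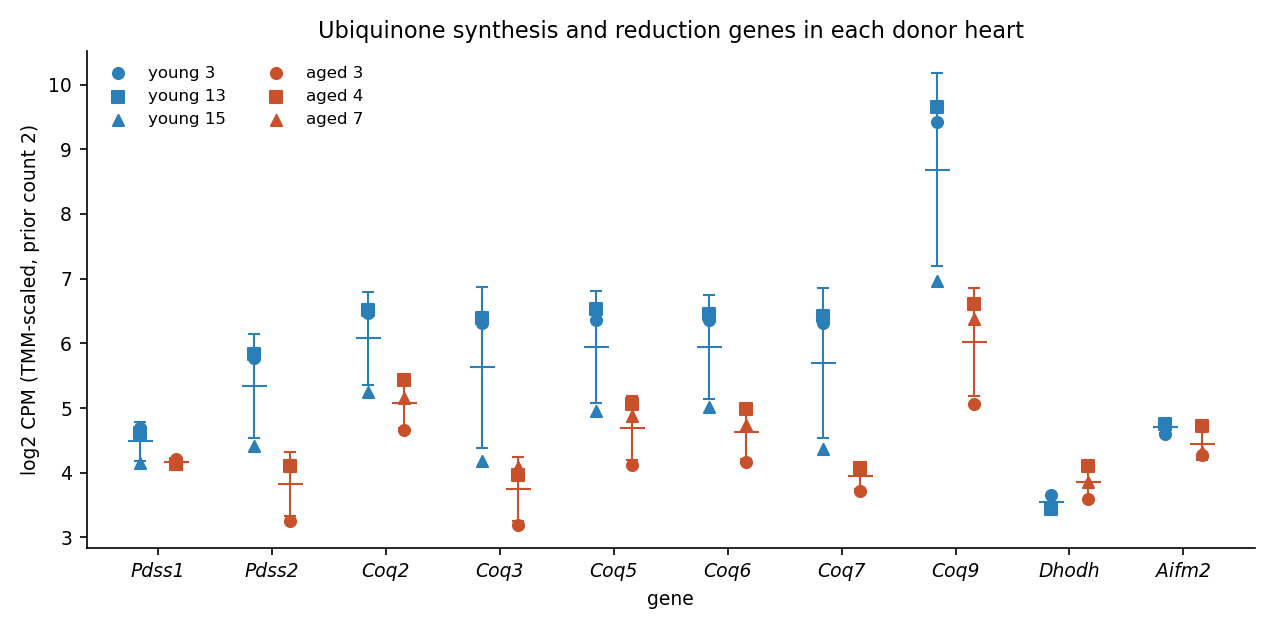
Log2 CPM of the 10 genes in each of the 6 hearts (blue, young; orange, aged; symbols mark the heart), with the mean and SD of 3 hearts as a line and bars. Young hearts 3 and 13 lie together at the top of the 8 synthesis genes, Coq9 falls most (mean 540.3 CPM in young and 71.5 in aged hearts), and Dhodh and Aifm2 vary little over the 6 hearts.

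The first step joins isoprene units into the tail. Pdss1 and Pdss2 encode the subunits of the decaprenyl diphosphate synthase, which in rats makes mainly a nonaprenyl tail. Pdss2 (Rnor_6.0, chr20:47966583-48192743, plus strand) was at 54.8, 57.0 and 21.2 CPM in young hearts 3, 13 and 15 and at 9.46, 17.1 and 17.2 CPM in aged hearts 3, 4 and 7. All 3 aged donor hearts lay below the lowest young heart, and the log2 fold change was -1.60 (SE 0.443, edgeR adjusted p = 0.0923). Pdss1 (chr17:90033539-90071408, minus strand in this build) was at 25.8, 24.4 and 17.6 CPM in the young hearts and at 18.4, 17.6 and 17.5 CPM in the aged hearts. Its groups overlapped through young heart 15, and the log2 fold change was -0.34 (95% interval -0.84 to 0.16, edgeR adjusted p = 0.264), not past the limits, and turned to 0.15 with library totals. The ratio of Pdss1 to Pdss2 reads within a heart, which no scaling of libraries can move, was -1.08, -1.23 and -0.27 (log2) in the young and 0.96, 0.04 and 0.03 in the aged donor hearts. The ratio was higher in every aged heart than in every young heart, by 1.20 ± 0.429 (SE), and the two-sided exact permutation p was 0.1, the smallest that 3 hearts against 3 can give (0.15 after adjustment over the 3 ratios tested).

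Coq2 encodes the prenyltransferase that attaches the tail to the ring. Coq2 (chr14:10581136-10600566) was at 88.8, 91.5 and 38.0 CPM in young hearts 3, 13 and 15 and at 25.2, 43.1 and 35.4 CPM in aged hearts 3, 4 and 7. Young heart 15 lay below aged heart 4, so the groups overlapped, and the log2 fold change of -1.07 (SE 0.387, edgeR adjusted p = 0.117) was the least of the 7 past the limits. It was no longer past them in 4 of the 6 fits that left out 1 heart (without young heart 3 or 13 or aged heart 3 or 7), where it ran from -1.08 to -0.87, nor was it with library totals in place of TMM (-0.54).

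Coq6, Coq3, Coq5 and Coq7 encode enzymes that modify the ring. COQ6 is a flavin-dependent hydroxylase. Coq6 (chr6:108076306-108087696) was at 82.3, 87.8 and 32.2 CPM in the young hearts and at 17.9, 31.6 and 26.6 CPM in the aged hearts, a log2 fold change of -1.41 (SE 0.425, edgeR adjusted p = 0.0953). The groups were separated by a narrow gap between young heart 15 and aged heart 4 in CPM, but overlapped in the deposited FPKM (19.6 in young heart 15 and 19.99 in aged heart 4). Coq6 overlaps Entpd5 on the opposite strand by 279 bases, and Entpd5 held 736 to 1262 reads in the 6 hearts, so without knowledge of strand a part of the Coq6 reads is uncertain. COQ5 is the C-methyltransferase of the ring. Coq5 (chr12:47078753-47095438) was at 81.9, 92.3 and 31.0 CPM in the young and 17.4, 33.4 and 29.3 CPM in the aged hearts, and aged heart 4 lay above young heart 15. Its log2 fold change was -1.36 (SE 0.458, edgeR adjusted p = 0.107), and like Coq2 it was no longer past the limits without young heart 3 or 13 or aged heart 3 or 7 (-1.42 to -1.08), or with library totals (-0.82).

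COQ3 carries out both O-methylations of the ring. Coq3 (chr5:36024649-36056669) was at 79.3, 83.6 and 18.1 CPM in the young hearts and at 9.03, 15.6 and 16.98 CPM in the aged hearts. Young heart 15 lay just above aged heart 7, and young hearts 3 and 13 lay far above all others. The log2 fold change was -2.12 (SE 0.597, edgeR adjusted p = 0.0923). COQ7 is the di-iron hydroxylase of the penultimate step. Coq7 (chr1:188174874-188190860) was at 79.3, 85.8 and 20.5 CPM in the young hearts and at 13.1, 16.7 and 16.6 CPM in the aged hearts, all 3 of which lay below young heart 15. Its log2 fold change was -2.0 (SE 0.526, edgeR adjusted p = 0.0916).

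Coq9, whose product binds lipid and presents the substrate to COQ7, was the highest of the 10 genes and had the largest change. Coq9 (chr19:10583857-10596851, minus strand) was at 686.6, 808.8 and 125.4 CPM in young hearts 3, 13 and 15 and at 33.5, 97.7 and 83.3 CPM in aged hearts 3, 4 and 7. Aged heart 3 was lowest and the groups did not overlap, although young heart 15 lay nearer to the aged hearts than to the other young ones. The mean was 540.3 ± 364.5 CPM (SD, n = 3) in young and 71.5 ± 33.7 CPM (SD, n = 3) in the aged ones, which gave a log2 fold change of -2.92 (SE 0.774, edgeR adjusted p = 0.0916). Young heart 15 differed from the mean of young hearts 3 and 13 by -2.57 for Coq9, by -2.16 for Coq3 and by -2.0 for Coq7 (log2 CPM), against 0.00 for Dhodh and 0.07 for Aifm2. Without young heart 15 the log2 fold change of Coq9 was -3.35, 7 of the 10 genes were lower past the limits, against 24.2% of all genes tested in that fit. Every aged heart then lay below both young hearts in 8 of the 10, against 35.3% of all genes, and above both in 0 of the 10, against 37.8%. Without aged heart 3, which had the lowest cardiomyocyte markers, 5 of the 10 were lower past the limits, against 14.7% of all genes. Both aged hearts then lay below every young heart in 6 of the 10, against 24.2% of all genes, and above in 1, Dhodh, against 24.7%.

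Dhodh had the lowest mean FPKM of the 10 genes in both groups and was the only one with a positive log2 fold change. Dhodh (chr19:42066351-42082012, plus strand) held 208, 169 and 281 reads in young hearts 3, 13 and 15 and 365, 451 and 375 reads in aged hearts 3, 4 and 7. After scaling this was 12.6, 10.7 and 11.6 CPM in the young hearts and 11.99, 17.1 and 14.4 CPM in the aged hearts, so that aged heart 3 lay within the young range. The log2 fold change was 0.31 (95% interval -0.21 to 0.84, edgeR adjusted p = 0.319), not past the limits, and the two-sided exact permutation p was 0.2. The interval leaves room for no change and for a rise of up to 0.84, and a fall of more than 0.21 lies outside it. The deposited FPKM values, which divide by the library total alone, were 3.10, 2.52 and 4.04 in the young hearts and 4.76, 6.19 and 5.33 in the aged hearts, without overlap (two-sided exact permutation p = 0.1). With library totals in place of TMM, the log2 fold change of Dhodh was 0.75 and past the limits, in a fit where the median over all genes was 0.46 and which moved the split of all calls from 1815 higher and 2621 lower to 3147 higher and 1441 lower. Counted from the median over all genes, which largely removes the scaling by construction, Dhodh lay at 0.30 with both scalings. The same distance was 0.28 under mitochondrial and 0.07 under cardiomyocyte scaling.

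Aifm2 (chr20:31339787-31352906, plus strand) was at 24.3, 26.8 and 26.8 CPM in young hearts 3, 13 and 15 and at 19.3, 26.3 and 19.96 CPM in aged hearts 3, 4 and 7. Aged heart 4 lay within the young range and the other aged hearts below it. The log2 fold change was -0.25 (95% interval -0.71 to 0.21, edgeR adjusted p = 0.367), and with library totals it turned to 0.19, also not past the limits.

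The reducing enzymes were also set against the synthesis genes of the same heart. The log2 ratio of Dhodh reads to the mean of the 8 synthesis genes was -2.81, -3.12 and -1.37 in young hearts 3, 13 and 15 and -0.46, -0.70 and -0.84 in aged hearts 3, 4 and 7. It was higher in every aged heart, by 1.77 ± 0.551 (SE), with a two-sided exact permutation p of 0.1 (0.15 adjusted over the 3 ratios). For Aifm2 the same ratio was -1.86, -1.80 and -0.17 in the young and 0.23, -0.08 and -0.37 in the aged hearts. Aged heart 7 lay below young heart 15, and the difference of 1.20 ± 0.582 (SE) had a two-sided exact permutation p of 0.2. Leaving out each heart in turn, the difference ran from 1.42 to 2.30 for Dhodh and from 0.91 to 1.76 for Aifm2. Of the 8 synthesis genes in the ratio, 7 were themselves lower past the limits. A gene at the median over all genes (log2 fold change 0.02) would therefore also show a higher ratio. The ratios thus do not show a rise of Dhodh or Aifm2 itself, whose log2 fold changes were 0.31 and -0.25, neither past the limits. These ratios are free of library scaling but not of the mix of cells, whose part was not tested. While the ratios were higher in the aged group, the summed cardiomyocyte markers given above were lower in every aged heart than in every young heart.

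**Figure D2:**
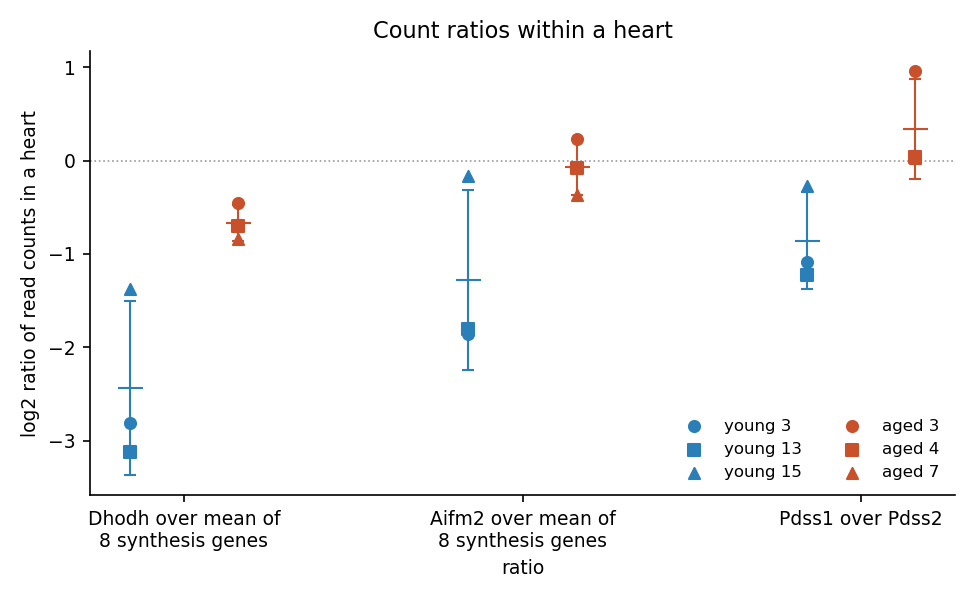
Log2 ratio of read counts within each heart for Dhodh and Aifm2 over the mean of the 8 synthesis genes and for Pdss1 over Pdss2, with the mean and SD of 3 hearts. All aged hearts lie above all young hearts for Dhodh (difference 1.77) and for Pdss1 over Pdss2 (1.20), while aged heart 7 lies below young heart 15 for Aifm2. Of the 8 synthesis genes, 7 were themselves lower past the limits in aged hearts.

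Levels were compared between genes in FPKM, which divides by gene length. In young donor hearts Coq9 led with a mean of 245.9 FPKM, 5 genes from Coq3 (36.3) through Coq5, Coq2 and Coq6 to Coq7 (20.5) followed, then Pdss2 (17.2) and Pdss1 (13.1), then Aifm2 (6.58) and Dhodh (3.22). Neighbours in this order overlapped in their ranges over 3 hearts except below Coq9, below Pdss1 and below Aifm2. In aged donor hearts Coq9 (48.6 FPKM) still led and Dhodh (5.43) was still last, but Pdss1 (14.5) stood above Coq3 (12.4), Pdss2 (8.20) and Coq7 (7.62), and all neighbours overlapped except Aifm2 (7.49) and Dhodh. The highest mean was 76.3 times the lowest in young and 8.95 times the lowest in aged donor hearts.

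Among 8 further genes of ubiquinone synthesis, transport and reduction, 4 were lower past the limits, 3 were higher and 1 was neither. Over all genes tested, 19.0% were lower and 13.2% higher. In 7 the groups did not overlap. Every aged heart lay below every young heart in 4, against 20.6% of all genes, and above in 3, against 21.0%. Paralogs moved in opposite directions. Coq8a, an atypical kinase of the COQ complex, was at 631.7, 666.0 and 80.1 CPM in young hearts 3, 13 and 15 and at 4.30, 27.8 and 49.0 CPM in aged hearts 3, 4 and 7, a log2 fold change of -4.09 (SE 1.14, edgeR adjusted p = 0.0923). Its paralog Coq8b was at 12.9, 11.2 and 40.4 CPM in the young and 43.1, 52.1 and 63.5 CPM in the aged hearts, a log2 fold change of 1.30 (SE 0.523, edgeR adjusted p = 0.139). In both genes young heart 15 lay between the other young hearts and the aged hearts. Coq10a, a lipid-binding protein needed for ubiquinone function, was at 96.7, 115.3 and 17.8 CPM in the young and 12.5, 15.2 and 16.4 CPM in the aged hearts (log2 fold change -2.38). Its paralog Coq10b was at 16.3, 15.0 and 32.1 CPM in the young and 36.6, 32.4 and 48.3 CPM in the aged hearts (log2 fold change 0.88). The rises of Coq8b and Coq10b were no longer past the limits in 5 of the 6 fits that left out 1 heart, and held only without young heart 15 (2.17 and 1.36).

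The paralog pairs were set side by side after their values were seen, as a description with no test. In FPKM, Coq8a was 39.8 and 48.3 times Coq8b in young hearts 3 and 13 and 1.61 times in young heart 15, and 0.0811, 0.434 and 0.626 times in aged hearts 3, 4 and 7. Coq8a was thus the higher paralog in the 3 young hearts and Coq8b in the 3 aged hearts. Coq10a was 7.18 and 9.31 times Coq10b in young hearts 3 and 13, but 0.6701 times in young heart 15 and 0.413 to 0.570 times in the aged hearts.

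**Figure D3:**
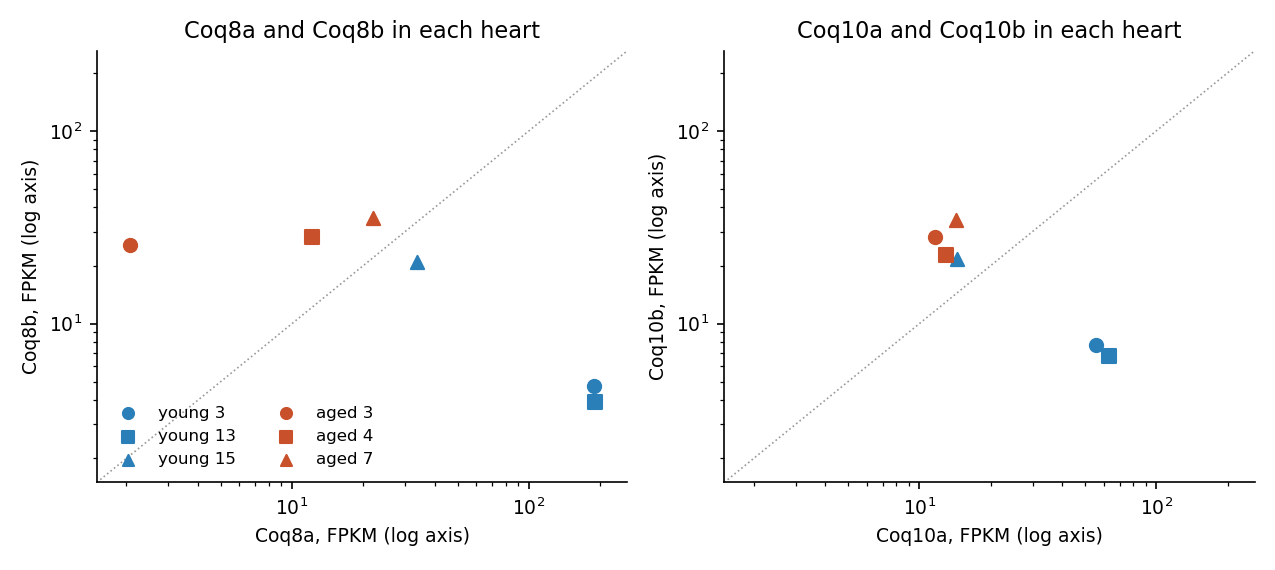
FPKM of Coq8a against Coq8b (left) and of Coq10a against Coq10b (right) in each heart, both axes logarithmic, with the line of equal levels dotted. Young hearts 3 and 13 lie far below the line in both plots (Coq8a at 39.8 and 48.3 times Coq8b), the aged hearts lie above it, and young heart 15 lies at a ratio of 1.61 on the left and 0.6701 on the right.

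Of the remaining genes, Pptc7, a mitochondrial phosphatase that acts on COQ7, had a log2 fold change of -1.69 and Hpdl, which takes part in making the 4-hydroxybenzoate ring, of -1.43. Both were lower in every aged heart than in every young heart, and with mitochondrial reference genes as the scale neither was past the limits (-0.74 and -0.63). Nqo1, a cytosolic quinone reductase, was at 20.1, 19.1 and 15.0 CPM in the young and 25.8, 27.0 and 32.5 CPM in the aged hearts, a log2 fold change of 0.65 (SE 0.200, edgeR adjusted p = 0.0966). Here young heart 15 was the lowest of the 6, and the change was no longer past the limits without young heart 15 or aged heart 7 (0.58 and 0.56). Coq4, a scaffold of the COQ complex, had a log2 fold change of -0.13 (95% interval -0.77 to 0.52), not past the limits, and its sign turned with library totals (0.28).

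**Figure D4:**
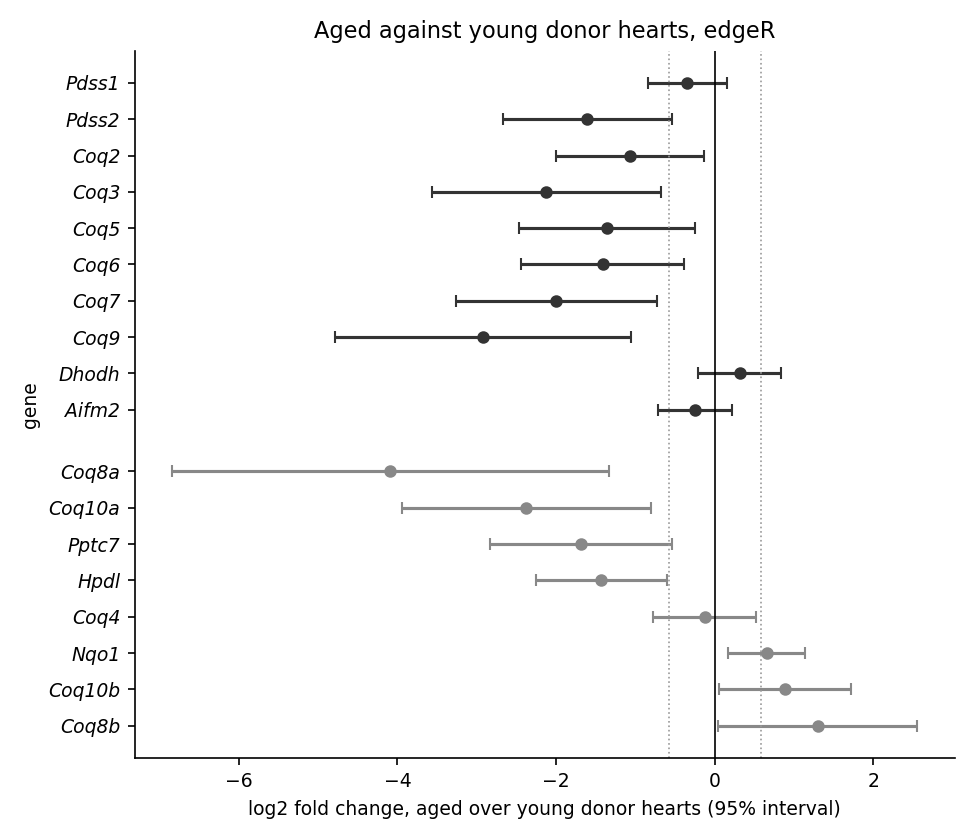
Log2 fold change of aged over young donor hearts with its 95% interval from edgeR, for the 10 genes (black) and the 8 further ubiquinone genes (grey), with the fold limits of 0.67 and 1.5 dotted. The intervals of 7 of the 10 genes lie below 0, those of Pdss1, Dhodh, Aifm2 and Coq4 cross it, and those of Coq8b, Coq10b and Nqo1 lie above it.

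Of 7 tested genes of the dehydrogenases that feed electrons to ubiquinone, 5 were lower past the limits, 1 was higher and 1 neither, with a median log2 fold change of -2.0. The share over all genes tested, here and for the lists that follow, was 19.0% lower and 13.2% higher. Of the 7, 4 are subunits of 1 enzyme, complex II, and all 4 were lower. Etfdh, which passes electrons from fatty acid oxidation, had a log2 fold change of -2.22, and the complex II subunits Sdha and Sdhd had -2.17 and -2.15. Sqor, which oxidises hydrogen sulfide, was at 14.7, 12.9 and 19.2 CPM in the young and 49.2, 26.4 and 24.8 CPM in the aged hearts (log2 fold change 1.10). By comparison, 11 mitochondrial reference genes gave 0 higher and 4 lower, with a median of -0.48.

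No tested gene of the mevalonate or pyrimidine lists was lower past the limits. Of 10 mevalonate pathway genes, 2 were higher, 0 lower and 8 neither, with a median of 0.74. Fdps, the farnesyl diphosphate synthase, had a log2 fold change of 0.81. Of 10 genes of pyrimidine synthesis and salvage other than Dhodh, 5 were higher, 0 lower and 5 neither, with a median of 0.70. Cad, which carries out the steps before DHODH, was at 42.9, 42.0 and 116.5 CPM in young hearts 3, 13 and 15 and at 123.1, 156.6 and 160.9 CPM in the aged hearts (log2 fold change 1.13). Umps, which carries out the steps after DHODH and was picked out after its values were seen, was at 22.2, 23.3 and 47.9 CPM in the young and 58.2, 66.0 and 50.4 CPM in the aged hearts (log2 fold change 0.90). The aged hearts lay above all young hearts in both, with young heart 15 next to them. The uridine phosphorylase Upp1 had a log2 fold change of 1.32 and the deoxycytidine kinase Dck of 0.90.

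Of 10 other ferroptosis defence genes tested, 4 were higher, 0 lower and 6 neither, with a median of 1.03, and 2 more did not pass the filter on low counts. Of these, Vkorc1l1 held 1 to 20 reads and Gpx4, a gene that most cells use, 0 to 3 reads a heart in this table. Slc7a11, the cystine transporter, held 1, 3 and 31 reads in the young and 124, 79 and 360 reads in the aged hearts (log2 fold change 3.67). Gch1, the first enzyme of tetrahydrobiopterin synthesis, was at 3.93, 7.50 and 12.4 CPM in the young and 25.1, 23.4 and 23.0 CPM in the aged hearts (log2 fold change 1.58). The acyltransferase Mboat1 had a log2 fold change of 1.76. Over these 5 lists, the 8 further ubiquinone genes included, the number of genes higher past the limits ran from 6 to 21 when 1 heart was left out, against 15 with all 6, with the lowest values without young heart 3, young heart 13 or aged heart 3 and the highest without young heart 15.

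**Figure D5:**
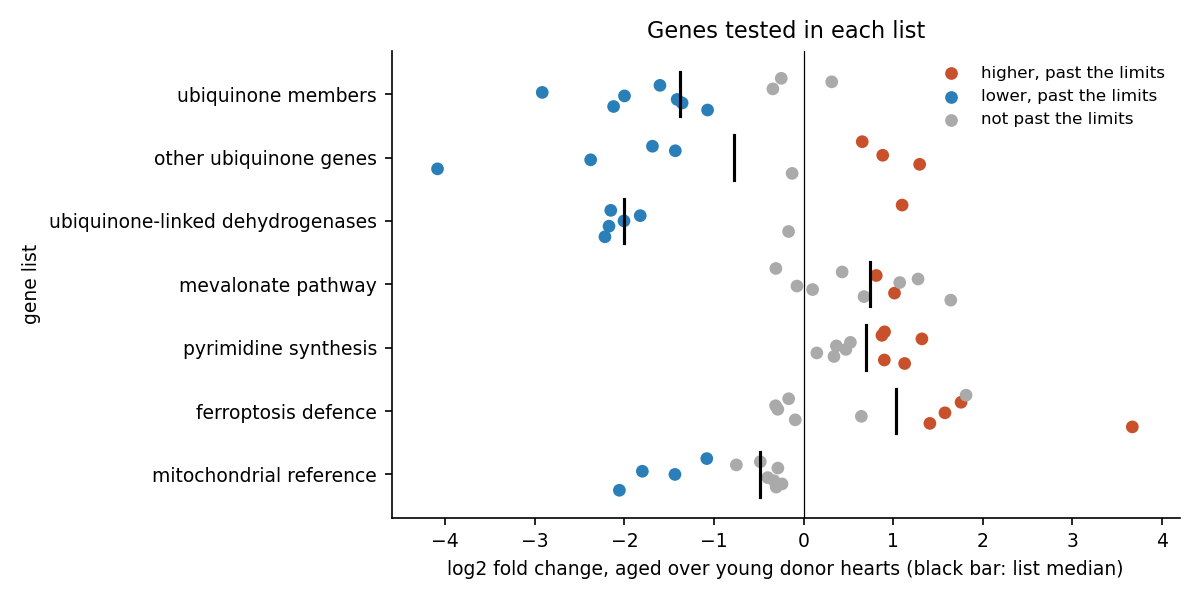
Log2 fold change of each tested gene in 7 lists, coloured by whether it was past the limits, with the list median as a black bar. The 10 ubiquinone genes (top row, median -1.38) and the ubiquinone-linked dehydrogenases (-2.0) lie mostly below 0, while mevalonate (0.74), pyrimidine (0.70) and ferroptosis defence genes (1.03) lie mostly above it.

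Among the 10 genes, Coq5 and Coq6 had the most similar profile over the 6 hearts, with a root mean square difference of 0.0712 (log2 CPM centred by gene), and Coq9 and Dhodh the least similar, at 1.75. Among 9552 other genes with a mean of at least 10 CPM, the nearest to Coq5 was Ndufb2 (0.0528), to Coq7 Ndufa8 (0.0693) and to Pdss2 Ndufs5 (0.0539), which all encode subunits of complex I. The nearest to Coq2 was the mitochondrial ribosomal gene Mrpl2 (0.0469), to Coq6 the mitochondrial glutaredoxin gene Glrx5 (0.0422), to Coq3 Vegfb (0.0567), to Coq9 Aldh5a1 (0.0804) and to Pdss1 Lzic (0.0354). The 5 nearest to Dhodh were Nif3l1 (0.0585), Snx25, Ssna1, Exosc5 and Ppil3 (0.0806), and the 5 nearest to Aifm2 were Klc1 (0.0384), Flot1, Mms19, S100a16 and App (0.0647). All values come from the same 6 libraries and describe likeness only.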

How the data were processed

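The authors deposited 1 table with raw read counts per gene, without normalization, and FPKM values per gene for 6 hearts. Per the submitters' processing notes, HISAT2 2.0.5, StringTie 1.3.3b, featureCounts 1.5.0-p3, DESeq2 1.16.1, GATK 3.7 and the build Rnor_6.0 were used, with roles not given in the sources used here, nor is the use of strand. Libraries were poly-T selected. FPKM of the 10 genes equalled count over length and library total within 0.00138%. The counts went into edgeR 4.0.16 under R 4.3.3 (filterByExpr, TMM, glmQLFTest without covariates, Benjamini-Hochberg adjustment over all genes tested). DESeq2 1.42.0 and limma 3.58.1 (voom with sample quality weights) were alternatives, as were other scalings, filters and leaving out each heart. Log2 CPM used a prior count of 2, and ratios an added count of 0.5. Figures were drawn with matplotlib 3.10.9. Steps were tested on simulated data with 200 changed genes. Smallest signals of 3 counts equal 0.0985 to 0.191 CPM on the TMM scale, which covers counting error only. The closest pair, young hearts 3 and 13, differed beyond sampling noise (chi-square 9.81 per degree of freedom). Nothing in the labels ties the hearts to a batch.

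The 10 genes and the lists were chosen with earlier results of these data known. Named were the 10, the 8 further ubiquinone genes, up to 3 genes past the limits in each direction of 4 neighbouring lists, and the nearest profiles (5 for Dhodh and Aifm2, 1 for each other gene). A gene that this rule names is not reported here by name. Of the other marker lists tested, counts of higher and lower genes were 2 and 0 of 6 (T cell), 0 and 1 of 7 (endothelial), 0 and 2 of 7 (fibroblast), 0 and 1 of 6 (smooth muscle and pericyte) and 0 and 1 of 4 (red blood cell), beside 0 and 4 of 10 (cardiomyocyte), 7 and 0 of 8 (neutrophil) and 5 and 0 of 9 (macrophage). Over all genes tested, 13.2% were higher and 19.0% lower.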

Additional observations from a re-analysis of the deposited data

How the results depend on the processing

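DESeq2 size factors, no filter on low counts, a stricter filter (5 CPM in 3 hearts), DESeq2 and limma-voom with sample quality weights kept the direction and the side of the limits for all 10 genes. These weights let hearts count unequally. Limma-voom gave 3689 higher genes over all, against 1815 in edgeR and 3802 in edgeR without young heart 15. It moved Coq9 to -3.25, against -2.92 in edgeR and -3.35 in edgeR without young heart 15, and turned Coq4 to 0.12. An adjusted p under 0.05 in edgeR left 0 of the 7 lower genes. Library totals alone left 5 of the 7 lower genes (Coq2 moved to -0.54 and Coq5 to -0.82, neither past the limits) and gave 1 higher gene among the 10 (Dhodh), a median of -0.85 for the 10 and 3147 higher and 1441 lower genes over all, and turned Pdss1 to 0.15, Aifm2 to 0.19 and Coq4 to 0.28. Scaling by mitochondrial reference genes left 3 lower (Coq3, Coq7 and Coq9) and 1 higher (Dhodh, 1.03) with a median of -0.52, gave 3702 higher and 912 lower genes over all, a median over all genes of 0.76, took Pptc7 (-0.74) and Hpdl (-0.63) off the limits, and turned Pdss1 to 0.48, Aifm2 to 0.47 and Coq4 to 0.53. Scaling by cardiomyocyte markers gave 3 higher and 0 lower among the 10 and a median of 4.59, 36 higher and 0 lower in the other lists, and 11655 higher and 1 lower over all genes. It left all 10 without overlap, but the share of all genes without overlap was not counted in that fit. Nothing particular to the 10 can therefore be read from that count. This scaling turned Coq2 to 4.94, Coq3 to 3.99, Coq5 to 4.58, Coq6 to 4.60, Coq7 to 4.42, Coq9 to 2.87, Pdss1 to 5.88, Pdss2 to 4.30, Aifm2 to 5.56, Coq4 to 5.45, Coq8a to 0.60, Coq10a to 4.17, Hpdl to 4.35 and Pptc7 to 4.85. Each scaling shifts every gene by construction. Leaving out each heart in turn gave 5 to 7 lower among the 10, 5 to 8 without overlap, 6 to 21 higher in the other lists, and 817 to 3802 higher and 1615 to 3412 lower over all genes, where the counts over all genes were lowest without young heart 3 and highest without young heart 15, and Coq4 ran from -0.27 to 0.072 (0.0064 without aged heart 3). Among these fits, shares of all genes without overlap were counted only without young heart 15 and without aged heart 3, given above with Coq9. No paired analysis was possible because the groups share only the number 3, which names different animals. With 3 hearts a group, an exact test cannot go below 0.1.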
